A study of Bos taurus with 18 samples.

Results

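Blastocysts grown from bovine oocytes that were matured with a negative control (NC) miRNA mimic were compared with blastocysts of the untreated control, gene by gene and pool by pool. The comparison rests on 7 of the 18 blastocyst pools sequenced, 3 of the NC mimic and 4 of the control, taken by the treatment in their labels. After adjustment, 0 of the 11082 genes tested passed edgeR's quasi-likelihood test, and 892 had an unadjusted p under 0.05. The 3 NC mimic pools lay above all 4 control pools at 802 genes, 7.24% of those tested, and below all of them at 522 genes, 4.71%. Most of these separations were narrow, with a median distance of 1.11-fold for the higher genes and 1.08-fold for the lower genes between the nearest pools of the 2 groups. One pool, control replicate 1, moved the count of separated genes more than any other, and NC mimic replicate 1 moved the count at an unadjusted p under 0.05 the most in relative terms.

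Cumulus-oocyte complexes from follicles of 2 to 4 mm, taken from slaughterhouse ovaries, were matured in vitro for 22 h, fertilised and cultured, and each pool held 10 embryos at 8 days post insemination (dpi). The NC mimic pools came from maturation medium with the control mimic, and the control pools from medium to which, by the study's methods, the same volume of water without RNase had been added, although their label reads Untreated. The other 11 pools came from maturation with miR-34c mimics (5 pools), miR-34c inhibitors (3 pools) or the NC of the inhibitors (3 pools). The mimic was present during maturation, before fertilisation, and the blastocysts were collected on day 8. The p-values measure the difference against the spread between pools of a treatment, estimated over the pools of all treatments unless stated. The labels do not say whether pools of a treatment came from separate cultures or days, so that spread may be partly technical.

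A miRNA mimic is a short RNA duplex built like the processed form of a miRNA, whose guide strand can be loaded into Argonaute and pair with messenger RNAs through its seed. An NC mimic has the same chemistry with a sequence meant to have no target, and it serves to tell the effect of adding RNA from the effect of a particular seed. The blastocyst that is read out here consists of the inner cell mass, which gives rise to the embryo proper, and the trophectoderm, which gives rise to the placenta. In pooled whole blastocysts, fewer cells of a type and less RNA per cell cannot be told apart.

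Messenger RNA was read at its 5′ end with a modified Smart-seq3xpress protocol and deposited as estimated counts per Ensembl gene. Levels are given as CPM, the counts relative to the library's total, scaled by TMM, a factor that adjusts for differences in composition between libraries. They are not scaled to gene length. The total count ranged from 2386734 to 3658224 in the NC mimic pools and from 2404575 to 3197174 in the control pools. The total counts of the groups thus overlapped. The genes with at least 1 count numbered 14616 to 15442 and 14045 to 15322, and these ranges overlapped only through control replicate 1. In control replicates 2, 3 and 4 these genes numbered 14488, 14045 and 14567, below every NC mimic pool. Genes are given by their Ensembl identifiers, which were not paired with gene names here. The check of the pools against markers of inner cell mass, trophectoderm and other cells was therefore not analysed here.

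Control replicate 1 stood apart from the other control pools before any gene was compared. Its Spearman correlation with control replicates 2, 3 and 4 across genes was 0.91, 0.915 and 0.893, whereas those 3 pools correlated with each other at 0.965 to 0.969. Its correlation with NC mimic replicate 3 was 0.956, higher than with any pool of its own treatment. The NC mimic pools correlated with each other at 0.97 to 0.978. These correlations are descriptions over genes, which are not independent.

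The biological coefficient of variation, the spread between pools beyond counting error, was 0.136 in the NC mimic pools and 0.318 in the control pools. Without control replicate 1 the control value was 0.169, and without NC mimic replicate 3 the NC mimic value was 0.081. Leaving out any other control pool gave 0.335 to 0.356, and leaving out any other NC mimic pool gave 0.146 to 0.159. The wider spread of the control group therefore went with 1 pool. The TMM factor of that pool was 1.076 against 0.912 to 0.935 in the other controls and 1.011 to 1.017 in the NC mimic pools, and its 10 most abundant genes held 13.02% of its counts. The part that library composition has in the results was not tested.

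The first principal component of the 7 pools, with 43.3% of the variance, ran from control replicate 1 at -57.5 to control replicate 4 at 37.3, and the NC mimic pools lay between them. The second component, with 21.7%, placed all NC mimic pools at 11.4 or above and all control pools at -4 or below. The treatments thus parted on the second component and overlapped on the first.

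**Figure D1:**
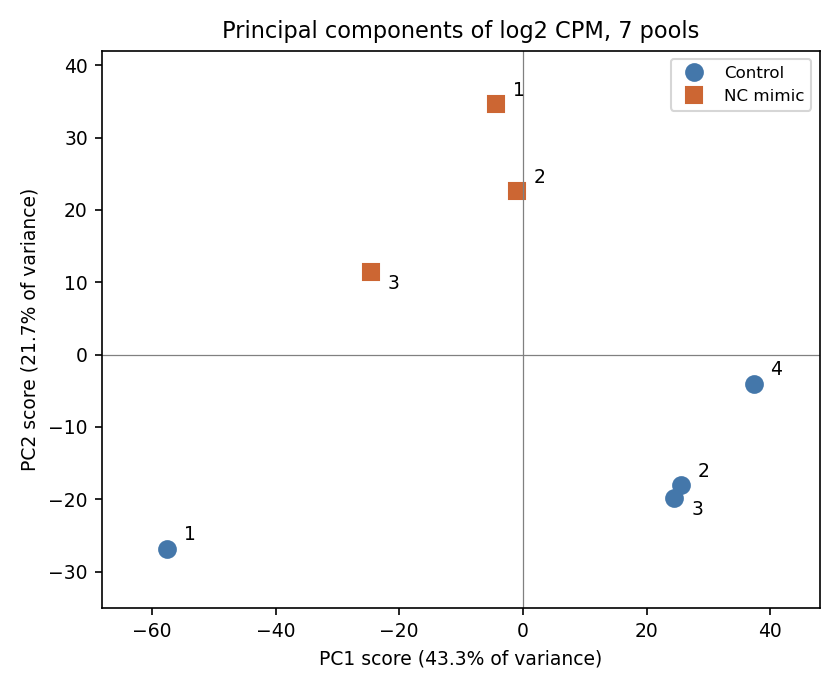
Scores of the 7 pools on the first (x axis, 43.3% of variance) and second (y axis, 21.7%) principal components of log2 CPM, with the replicate number beside each point. Circles are control pools and squares NC mimic pools. Control replicate 1 sits at -57.5 on the first component, away from the other controls, and the treatments part only on the second component.

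Across all genes tested, edgeR's quasi-likelihood test found 0% of genes past both thresholds, an adjusted p under 0.05 and a change of 2-fold or more, with a smallest adjusted p of 0.479. At an unadjusted p under 0.05 it gave 892 genes, or 8.05%, of which 503 had higher and 389 lower fitted levels in the NC mimic pools. DESeq2 called 4 genes, 0.0825% of the 4851 for which it gave an adjusted p, and limma with sample quality weights called 265 genes, or 2.39%. In the limma fit, control replicate 1 had a weight of 0.196 and the other 6 pools had weights of 1.02 to 2.41. Of its 265 genes, 213 were higher and 52 lower in the NC mimic pools, and 156 were separated in every pool. The median log2 fold change of all genes tested was -0.01, and the median size of a change was 0.26 on the log2 scale.

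A gene is called separated here where the CPM of every NC mimic pool lay above, or every one below, all control pools. With 3 pools against 4 there are 35 ways to divide the pools, and the smallest two-sided p an exact permutation test can give is 0.0571, so separation is a description and carries no p. The 802 higher and 522 lower genes were together 11.9% of the genes tested. Of these 1324 genes, 60.6% were higher. That share depended on the scaling, and was 72.7% with CPM by total count alone and 51.7% under DESeq2's size factors. It was also 50.3% without control replicate 1, at 1925 higher and 1902 lower genes, and 79.5% among the genes with a distance of at least 1.5-fold.

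The distance between the nearest pools of the 2 groups, a log2 ratio of CPM with a prior count of 2, shows how firm a separation was. It was at least 1.5-fold at 35 higher and 9 lower genes, together 0.397% of the genes tested. At 3 higher and 2 lower genes it was at least 2-fold. At 32 of the higher and 24 of the lower genes, the 95% Poisson intervals of the counts in the nearest pools did not touch, and these intervals cover counting error only. At the other separated genes these intervals touched. The median log2 fold change of the separated genes was 0.65 for the higher and -0.54 for the lower ones. Of the genes with a fitted change of 2-fold or more, 152 of 242 on the higher side and 54 of 136 on the lower side were separated.

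Separation and the test overlapped but did not coincide. Of the genes at an unadjusted p under 0.05 in edgeR's test, 403 of 503 higher and 269 of 389 lower ones were separated, and at 100 and 120 genes the groups overlapped in spite of the p. Both were computed from the same values. Among genes with a mean of under 20 counts over the 7 pools, 7.6% were separated with the NC mimic higher and 3.17% with it lower. At a mean of 20 to 100 counts these shares were 8.43% and 4.49%, and at 100 to 500 counts 6.18% and 5.97%. Among genes with a mean of 500 counts or more, they were 4.56% and 4.98%. With TMM scaling, higher genes thus outnumbered lower ones mainly below a mean of 100 counts.

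**Figure D2:**
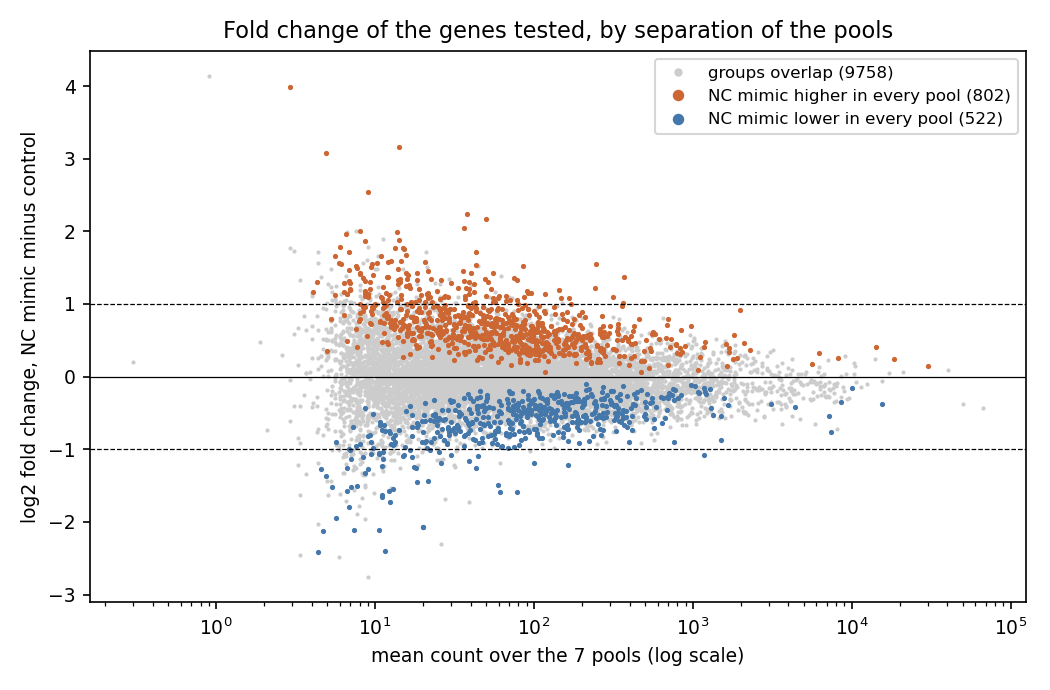
Log2 fold change (y axis, NC mimic minus control, edgeR) against the mean count over the 7 pools (x axis, log scale), 1 point per gene tested. Coloured points are the 802 genes higher and the 522 genes lower in every NC mimic pool, grey points are genes whose groups overlap, and dashed lines mark a log2 fold change of 1 and -1. Separated genes occur at all levels, and those with the largest fold changes have low counts.

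The 12 genes described first are those with the widest distance between the groups, 6 in each direction, among separated genes with a mean of at least 20 counts. Their levels in every pool are given in the order of the replicate numbers, which do not pair pools across treatments. Since they were ranked on this distance, their fold changes are descriptions.

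ENSBTAG00000018312 had the widest distance on the higher side. Its CPM was 31.2, 22.8 and 22.1 in the NC mimic pools and 5.76, 8.48, 7.84 and 8.76 in the control pools. The lowest NC mimic pool was 2.42-fold above the highest control pool, from counts of 63 to 82 against 18 to 26. The fitted log2 fold change was 1.72 (SE 0.39), with an unadjusted p of 0.00029 and an adjusted p of 0.479 in edgeR's test. Control replicate 1 was the lowest of the 7 pools at this gene, so it widened the difference.

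ENSBTAG00000021707 had CPM of 139.9, 126 and 140.1 in the NC mimic pools and 59.1, 57.1, 21.3 and 47.2 in the control pools. The distance was 2.12-fold and the log2 fold change 1.55 (SE 0.35), with an unadjusted p of 0.00032 and an adjusted p of 0.479 in edgeR's test. The NC mimic pools were close to each other, and control replicate 3 lay far below the other controls. Without control replicate 3 the log2 fold change was 1.27. DESeq2 called this gene at an adjusted p of 0.0255.

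ENSBTAG00000010907 had nearly the same CPM in each NC mimic pool, at 20.8, 20.3 and 20.5. In the control pools it was 10.0, 8.93, 6.10 and 8.09, with control replicate 1 the highest. The distance was 1.96-fold and the log2 fold change 1.3 (SE 0.36). Group means were 20.5 ± 0.259 (SD, n = 3) and 8.28 ± 1.65 (SD, n = 4).

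ENSBTAG00000018999 had counts of 106 or more in every one of the 7 pools. Its CPM was 156, 111 and 113 in the NC mimic pools and 58.2, 47.3, 55.8 and 55.6 in the control pools, 1.90-fold apart at the nearest pools. NC mimic replicate 1 was the highest, and without it the log2 fold change was 1.04 in place of 1.22 (SE 0.33).

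At ENSBTAG00000019369 the CPM was 20.4, 19.6 and 18.4 in the NC mimic pools and 9.40, 4.91, 6.53 and 7.08 in the control pools. At ENSBTAG00000007187 it was 30.4, 29.0 and 30.0 in the NC mimic pools and 15.2, 8.04, 11.8 and 9.10 in the control pools. At both genes control replicate 1 was the control pool nearest to the NC mimic pools. Their distances were 1.89-fold and 1.87-fold, and without control replicate 1 they were 2.46-fold and 2.39-fold. Neither passed edgeR's test, with adjusted p of 0.479 and 0.497.

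On the lower side, ENSBTAG00000036102 had the widest distance and the smallest unadjusted p. Its CPM was 12.5, 14.5 and 13.2 in the NC mimic pools and 38.2, 48.7, 44.0 and 31.7 in the control pools. The highest NC mimic pool was 2.13-fold below the lowest control pool. The log2 fold change was -1.59 (SE 0.32), with an unadjusted p of 8.79e-05 and an adjusted p of 0.479 in edgeR's test. Here control replicate 1 lay among the other controls, and the log2 fold change stayed between -1.74 and -1.55 with any 1 pool left out.

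ENSBTAG00000011677 had CPM of 7.91, 12 and 10.5 in the NC mimic pools and 35.5, 23.2, 30.9 and 32.4 in the control pools, 1.89-fold apart at the nearest. The log2 fold change was -1.58 (SE 0.37). Control replicate 2 was the nearest control pool and control replicate 1 the farthest.

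ENSBTAG00000021119 had CPM of 18.3, 21.8 and 22.4 in the NC mimic pools and 40.3, 50.5, 46.2 and 54.6 in the control pools. The distance was 1.78-fold and the log2 fold change -1.20 (SE 0.31). Its adjusted p was 0.479 with edgeR and 0.0489 with DESeq2. It was the only one of these 12 genes at which the NC mimic pools lay beyond all 15 other pools of the series.

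The other three lower genes had smaller distances. ENSBTAG00000003861 had CPM of 22.5, 20.3 and 22.7 in the NC mimic pools and 35.8, 38.4, 47.9 and 35.7 in the control pools. ENSBTAG00000020626 had CPM of 9.58, 10.9 and 8.37 in the NC mimic pools and 29.7, 17.4, 17.9 and 16.5 in the control pools. Control replicate 1 was far above the other controls at ENSBTAG00000020626, and the log2 fold change was -1.09 with it and -0.89 without it. ENSBTAG00000017416 had CPM of 25.4, 31.9 and 27.0 in the NC mimic pools and 47.9, 49.1, 57.1 and 47.9 in the control pools. The distances of these genes were 1.56-fold, 1.49-fold and 1.49-fold, and none of them passed edgeR's test, with adjusted p of 0.479 to 0.52.

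Limma with sample quality weights, in which control replicate 1 counted least, gave all 12 of these genes an adjusted p between 0.00469 (ENSBTAG00000021707) and 0.0476 (ENSBTAG00000020626). It called 9 of them, and the other three, ENSBTAG00000003861, ENSBTAG00000020626 and ENSBTAG00000017416, had fitted changes under 2-fold. At those 9 genes the choice of test thus decided the call, and the others were called by no test. DESeq2 gave no adjusted p at ENSBTAG00000018312, ENSBTAG00000010907, ENSBTAG00000019369, ENSBTAG00000007187, ENSBTAG00000036102, ENSBTAG00000011677 and ENSBTAG00000020626, so it decided neither way there.

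**Figure D3:**
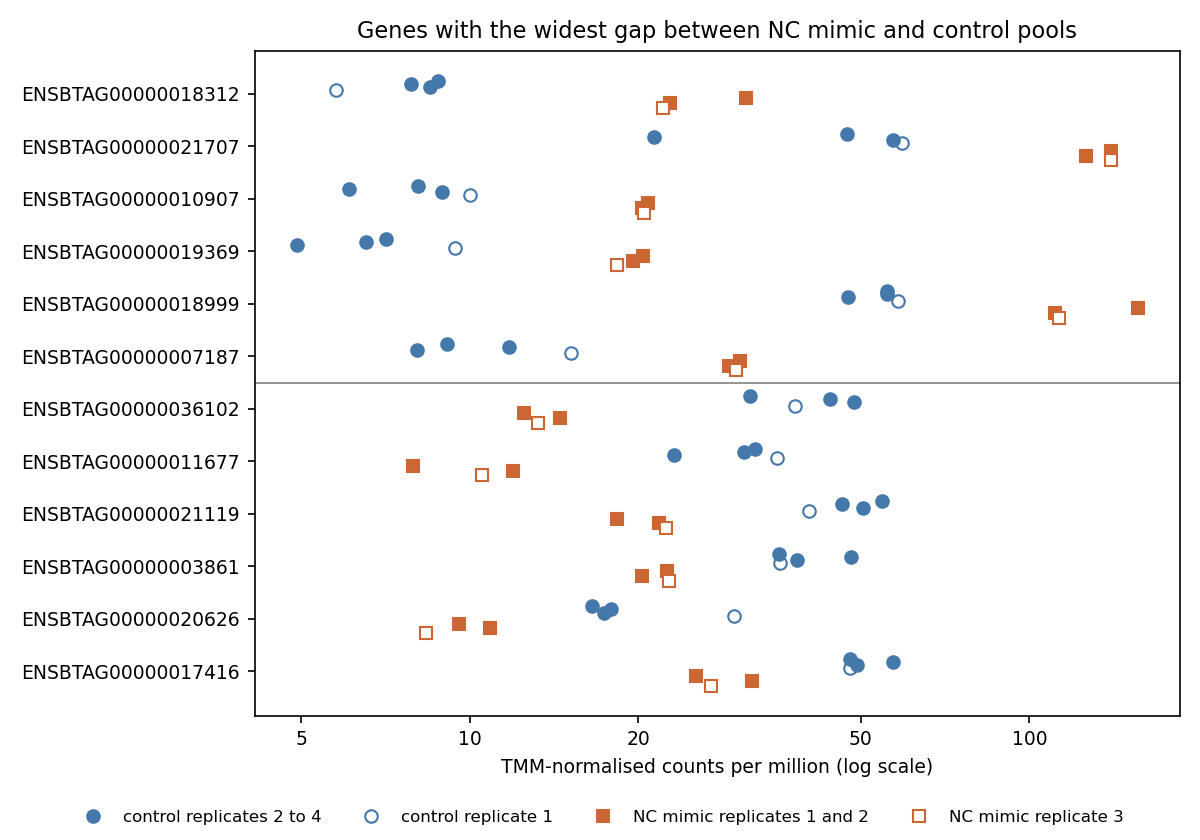
TMM-normalised CPM (x axis, log scale) of the 12 genes with the widest distance between the groups (y axis), 1 point per pool, with circles for the control and squares for the NC mimic. Open symbols mark control replicate 1 and NC mimic replicate 3, and the vertical spread only keeps points apart. The 6 genes above the line are higher and the 6 below it lower in every NC mimic pool.

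The smallest unadjusted p of the fit belonged to ENSBTAG00000015149, which did not have one of the widest distances. Its CPM was 289, 177 and 151 in the NC mimic pools and 53.1, 85.3, 84.9 and 94.4 in the control pools, from counts of 489 to 693 against 175 to 280. NC mimic replicate 1 was far above the other two, and the nearest pools were 1.60-fold apart. The log2 fold change was 1.37 (SE 0.28), with an unadjusted p of 8.78e-05, an adjusted p of 0.479 in edgeR's test, 0.00657 in DESeq2 and 0.00479 in limma. Without NC mimic replicate 1 the log2 fold change was 1.05.

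ENSBTAG00000009854 had the second smallest unadjusted p on the lower side, 0.000256 in edgeR's test. Its CPM was 31.2, 39.2 and 43.2 in the NC mimic pools and 68.2, 75.9, 69.3 and 58.0 in the control pools. The groups were 1.34-fold apart at their nearest pools, NC mimic replicate 3 and control replicate 4. DESeq2 gave it an adjusted p of 0.00586 at a log2 fold change of -0.87, and limma an adjusted p of 0.00787 at -0.86, so it missed both calls on the size of the change alone. The fourth gene that DESeq2 called, ENSBTAG00000043546, is named because it completes those calls. It had counts of 437, 577 and 1357 in the NC mimic pools and 2064, 864, 1505 and 1407 in the control pools, so NC mimic replicate 3 held more raw counts than control replicate 2 and the separation rested on the scaling of the libraries.

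The separated genes with the highest CPM had fold changes near their standard errors on the higher side. ENSBTAG00000014534 had CPM of 11087, 10774 and 11954 in the NC mimic pools and 10511, 9671, 10702 and 9747 in the control pools, a log2 fold change of 0.15 (SE 0.17). ENSBTAG00000026199 had a mean CPM of 7182 ± 375 (SD, n = 3) in the NC mimic pools and 6090 ± 449 (SD, n = 4) in the control pools. At both genes the nearest pools were within 1.02-fold of each other. The unadjusted p in edgeR's test was 0.378 and 0.175.

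ENSBTAG00000043556, which had the highest CPM of the lower genes, had CPM of 4428, 4673 and 5184 in the NC mimic pools and 5576, 6374, 6656 and 6095 in the control pools. The groups were 1.08-fold apart at NC mimic replicate 3 and control replicate 1, and the log2 fold change was -0.37 (SE 0.16) with an adjusted p of 0.561 in edgeR's test. ENSBTAG00000010156 had a mean CPM of 3393 ± 48.1 (SD, n = 3) in the NC mimic pools and 3781 ± 350.2 (SD, n = 4) in the control pools. Its groups touched within 1.00-fold, again at control replicate 1.

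Genes listed at 0 in every pool of 1 group had few counts in the other. With 0 counts in every control pool and at least 5 in every NC mimic pool there were 0 genes, and 0 in the opposite direction. With at least 1 count in place of 5 there were 35 genes with counts in every NC mimic pool and no control pool, none over 5 counts in a pool, and 12 with the reverse, none over 13 counts. A count of 0 allows up to 3 counts, and none of these genes passed the filter on low counts.

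The number of separated genes turned on control replicate 1. Leaving out a pool can only add separated genes, and without control replicate 1 there were 3827, or 34.5% of the genes tested, against 1324 with all 7 pools. Without control replicate 2, 3 or 4 there were 1616, 1699 and 1847. Without NC mimic replicate 1, 2 or 3 there were 1718, 1895 and 2155. Leaving out a control pool leaves 3 pools against 3, and leaving out an NC mimic pool leaves 2 against 4. The latter separate more easily by order alone, so the counts compare best within a treatment. Among the NC mimic pools, replicate 3 moved the count most.

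Control replicate 1 alone kept 2503 genes from separating, 1123 at which the other pools put the NC mimic higher and 1380 at which they put it lower. For the other control pools this number ranged from 292 for replicate 2 to 523 for replicate 4. For the NC mimic pools it ranged from 394 for replicate 1 to 831 for replicate 3. At 1715 of the 2503 genes, or 68.5%, control replicate 1 lay not within the range of the NC mimic pools but beyond all 3 of them, on the far side from the other controls. At 1188 of these 1715 genes, or 69.3%, the NC mimic pool nearest to it was replicate 3. The other 788 genes had control replicate 1 within the NC mimic range. Of the 2503 genes, 86 had an unadjusted p under 0.05 in edgeR's test, which used all pools.

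**Figure D4:**
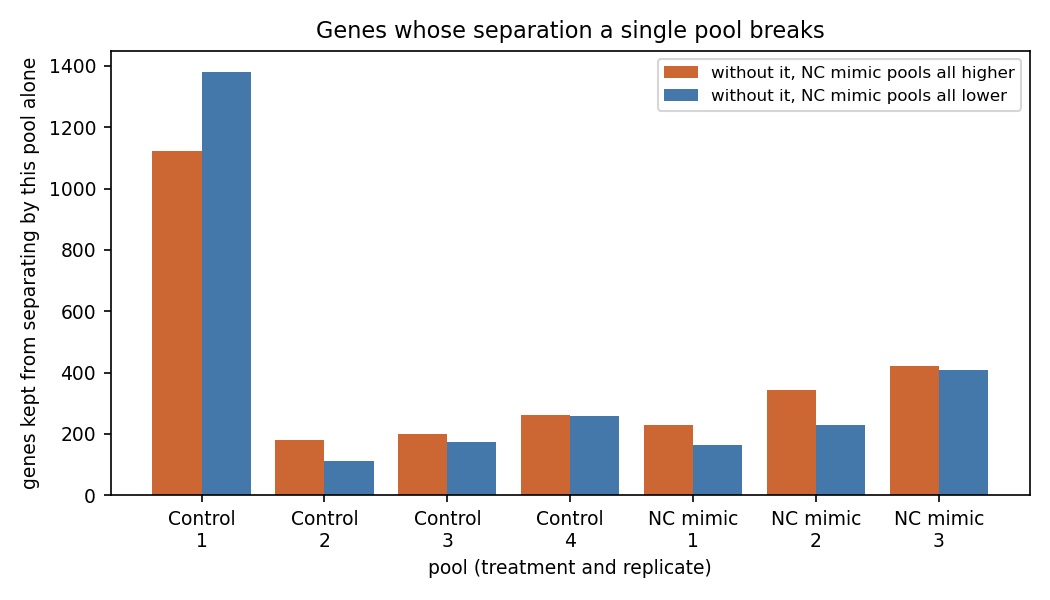
Number of genes (y axis) that separate when the pool on the x axis is left out and do not separate with all 7 pools, by direction. Control replicate 1 alone accounts for 1123 genes with the NC mimic higher and 1380 with it lower, and NC mimic replicate 3 for 421 and 410. The group sizes left differ by treatment, so bars compare best within a treatment.

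At the 2503 genes the separation that control replicate 1 broke was mostly narrow, and at 41 of them the other pools were at least 2-fold apart. The 3 genes with the widest distance without it are extremes picked for that reason. ENSBTAG00000047136 had CPM of 12.9, 7.61 and 9.45 in the NC mimic pools and 19.4, 0, 1.74 and 1.35 in the control pools, from 64 counts in control replicate 1 and 0 to 4 in the other controls. Its log2 fold change was 0.72 (SE 0.99) with all pools and 3.13 (SE 1.13) without control replicate 1. Without control replicate 2, 3 or 4 it was 0.30, 0.40 and 0.34. The adjusted p in edgeR's test was 0.87 with all pools and 0.327 without control replicate 1, and limma, which kept that pool at a low weight, gave 3.27 with an adjusted p of 0.0383.

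ENSBTAG00000019015 had CPM of 8.74, 9.43 and 9.99 in the NC mimic pools and 13.6, 2.23, 1.74 and 1.35 in the control pools. ENSBTAG00000008632 had CPM of 17.9, 12.7 and 15.7 in the NC mimic pools and 13.6, 3.57, 3.05 and 3.03 in the control pools. At both genes the other controls lay together at low levels, and control replicate 1 was above the NC mimic pools at the first and within their range at the second. The log2 fold change was 0.90 with and 2.36 without control replicate 1 at ENSBTAG00000019015, and 1.34 and 2.20 at ENSBTAG00000008632. With another control pool left out it was 0.54 to 0.64 and 1.07 to 1.13. Neither gene passed edgeR's test without control replicate 1, with adjusted p of 0.38 and 0.357, and limma called both, with adjusted p of 0.0335 and 0.0231.

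For the fit as a whole, leaving out control replicate 1 gave 1443 genes at an unadjusted p under 0.05, against 892 with all pools, and leaving out NC mimic replicate 1 gave 457. The share of these genes that were higher in the NC mimic pools was 56.4% with all pools. It was 41.6% to 43.3% with any 1 control pool left out and 53.4% to 61.3% with any 1 NC mimic pool left out. Each fit with a pool left out set the filter and the TMM factors anew. The share may thus move with the scaling as well as with the pool, which was not tested. The median log2 fold change was -0.012 with all pools and -0.035 to -0.065 with any 1 control pool left out. Among separated genes, where the factors were kept, 50.3%, 60.8%, 59% and 57.7% were higher without control replicates 1 to 4 in turn. The smallest adjusted p was 0.0894 without control replicate 1 and 0.447 to 0.976 without any other pool. In each of these 7 fits, 0 genes passed edgeR's test at both thresholds. With all pools kept, the share higher at an unadjusted p under 0.05 in edgeR's test was 45.8% of 912 genes with median-of-ratios size factors. With any 1 pool left out, the adjusted p of the 21 genes named by rule stayed at 0.307 or above in edgeR's test.

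The other 11 pools give levels under the other treatments. The treatments share the control pools, so their levels are set side by side and their differences from the control are not compared. At ENSBTAG00000018312, the lowest, median and highest CPM were 18.4, 32.8 and 44.0 in the NC inhibitor pools, 6.58, 10.4 and 21.4 in the miR-34c mimic pools, and 11, 23.7 and 25 in the miR-34c inhibitor pools. At ENSBTAG00000021707 they were 103, 128 and 129.6 in the NC inhibitor pools, 28.9, 44.2 and 48.5 in the miR-34c mimic pools, and 46.3, 51.7 and 141 in the miR-34c inhibitor pools. At both genes the NC inhibitor pools lay above all control pools. The miR-34c mimic pools overlapped with the controls at both genes, and the miR-34c inhibitor pools at the second.

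At ENSBTAG00000036102 the lowest, median and highest CPM were 8.94, 15.6 and 24.8 in the NC inhibitor pools, 24.0, 30.0 and 43.6 in the miR-34c mimic pools, and 9.07, 13.1 and 19.1 in the miR-34c inhibitor pools. The inhibitor pools of both kinds therefore lay below all control pools there, as the NC mimic pools did. At ENSBTAG00000021119 the values were 49.7, 54.2 and 58.5 in the NC inhibitor pools, 33.2, 63.6 and 84.4 in the miR-34c mimic pools, and 25.9, 54.0 and 68.6 in the miR-34c inhibitor pools. There the NC mimic pools, at 22.4 or less, were the lowest of all 18.

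At the other four higher genes the NC inhibitor pools ranged in CPM from 11.2 to 21.4 (ENSBTAG00000010907), 101 to 137 (ENSBTAG00000018999), 16.9 to 20.9 (ENSBTAG00000019369) and 28.0 to 29.4 (ENSBTAG00000007187), above every control pool each time. At the other four lower genes they ranged from 21.5 to 29.4 (ENSBTAG00000003861), 14.7 to 31.1 (ENSBTAG00000017416), 11.8 to 35.7 (ENSBTAG00000011677) and 11.8 to 19.1 (ENSBTAG00000020626). They lay below every control pool at the first pair of these and overlapped with the controls at the second pair.

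**Figure D5:**
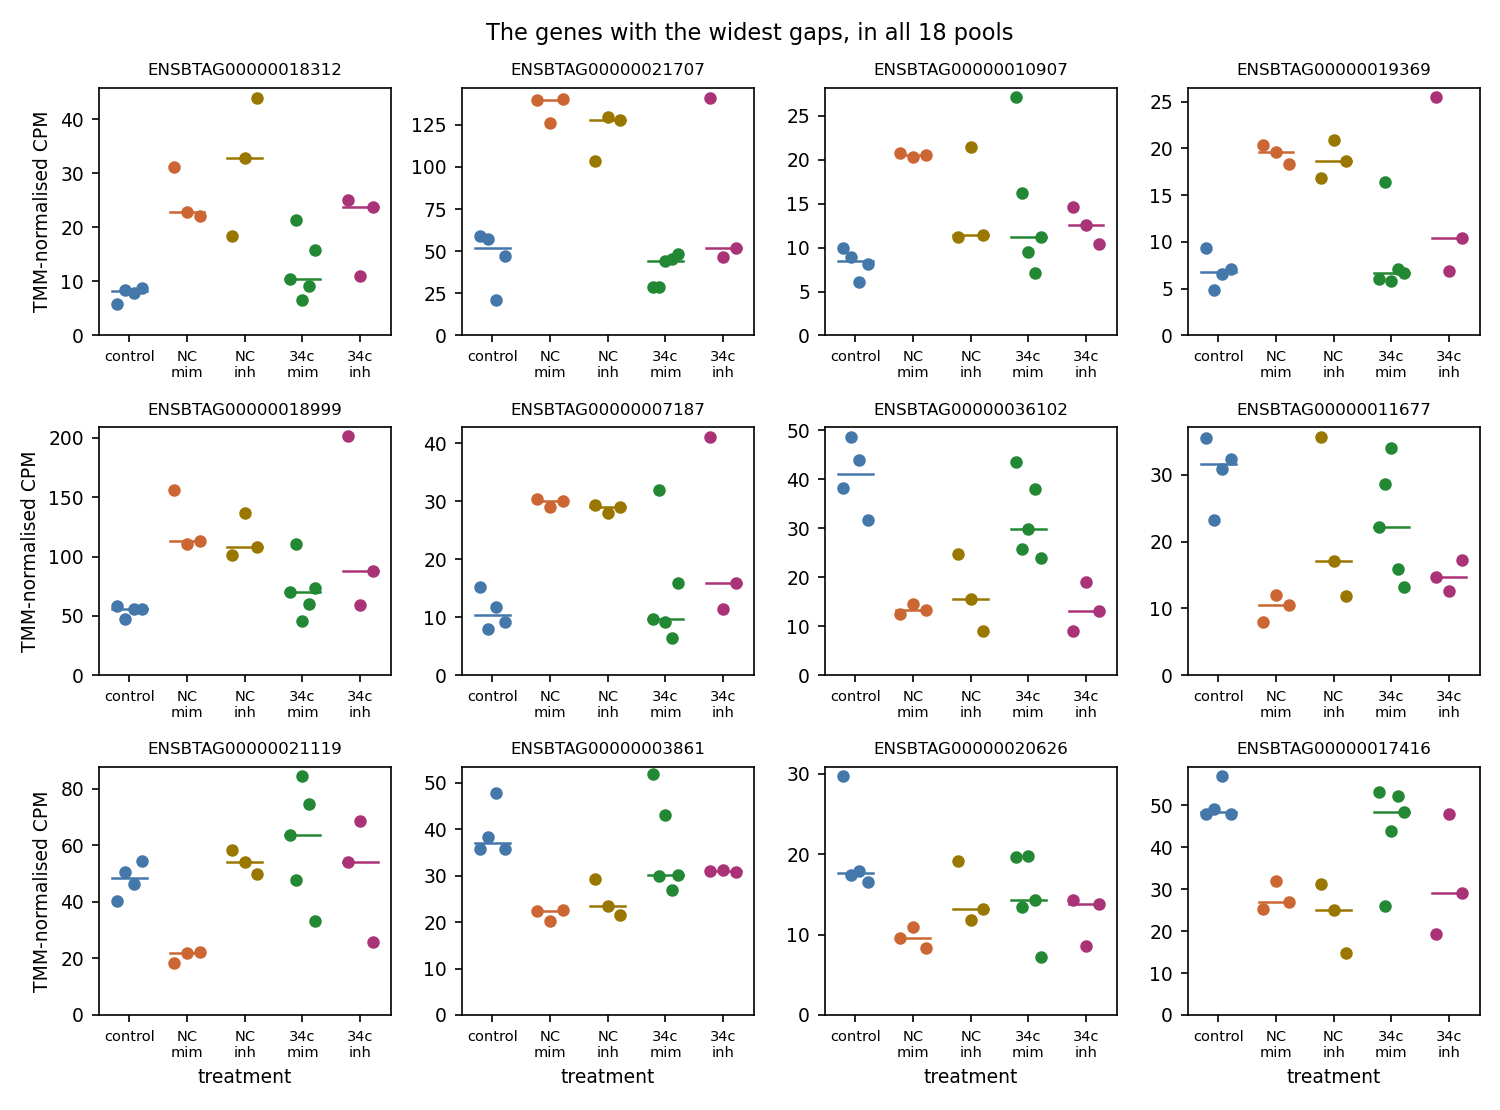
TMM-normalised CPM (y axes, each from 0) of the 12 genes with the widest distances in all 18 pools, by treatment (x axes): control, NC mimic (NC mim), NC inhibitor (NC inh), miR-34c mimic (34c mim) and miR-34c inhibitor (34c inh). Points are pools and lines are medians. Among these 12 genes, only at ENSBTAG00000021119 are the NC mimic pools beyond all 15 others.

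The NC mimic pools lay above all 15 other pools at 27 genes, 0.244% of those tested, and below all 15 at 32 genes, 0.289%. The same counts were 49 and 77 for the NC inhibitor pools and 6 and 2 for the miR-34c inhibitor pools, which are also 3 each. The 4 control pools lay below all 14 other pools at 6 genes and above all 14 at 5. The 3 genes named here were chosen after their values were seen, from the 3 widest distances in each direction at a mean of at least 20 counts.

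ENSBTAG00000014614 had CPM of 202, 209.5 and 215 in the NC mimic pools, and 154, 117, 83.6 and 126 in the control pools. The nearest other pool was miR-34c inhibitor replicate 1 at 164, a distance of 1.23-fold. ENSBTAG00000010620 had CPM of 87.0, 86.3 and 90.4 in the NC mimic pools and 62.1, 41.1, 54.4 and 57.3 in the control pools, with NC inhibitor replicate 2 nearest at 70.6. On the lower side, ENSBTAG00000018373 had CPM of 25.4, 21.8 and 24.6 in the NC mimic pools and 36.1, 39.3, 40.9 and 42.8 in the control pools, and its nearest other pool, miR-34c mimic replicate 5, was at 34.7. At all 3 genes the NC mimic pools lay close together, and at none was the distance to the nearest other pool as large as 1.5-fold.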

How the data were processed

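For 18 libraries the authors deposited estimated counts from RSEM, 1 value per Ensembl gene, as whole numbers without normalization. The submitters' processing notes name FastQC 0.11.9, cutadapt 3.7, STAR 2.7.10a, UMI-tools 1.1.4, RSEM 1.3.3 and the build ARS-UCD1.2, without their roles. RSEM divides reads that match several genes, so genes with a near-identical copy are uncertain. Whether counting used strand or molecular identifiers is not given in the sources used here.

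Of 27270 genes listed, 7840 had no count and 11082 passed filterByExpr. Counts were analysed in R 4.3.3 with edgeR 4.0.16 (TMM, quasi-likelihood test, all 18 libraries in one fit with treatment as the only term, Benjamini-Hochberg adjustment), and a call needed an adjusted p under 0.05 and a log2 fold change of 1 or more in size. DESeq2 1.42.0 and limma 3.58.1 (voom with sample quality weights) were alternatives, and DESeq2 gave no adjusted p at 6231 genes. Other alternatives were median-of-ratios factors, other filters, the replicate block, a fit of the 2 groups alone, and leaving out each pool. Separation was recomputed with counts thinned to the smallest total, an alternative chosen after seeing the data. To look for a library deposited more than once, the 9 pairs of pools within a treatment were compared with sampling noise, which separate pools should exceed. Chi-square divided by its degrees of freedom was 2.37 to 47.05, so all were kept as separate pools. The scripts were tested on simulated data.

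Named genes were the 6 separated genes per direction with the widest distance between groups, at a mean of at least 20 counts over the 7 pools. Added to these were the 3 genes per direction with the smallest unadjusted p and the 2 separated genes per direction with the highest CPM. The last were 3 genes whose separation control replicate 1 alone broke, with the widest distance without it at the same minimum mean count. The members, the planned gene lists and this rule were chosen with earlier results of these data known. The lists of cell type markers were not analysed here, because 0 of 37063 genes in the RefSeq table used carried an Ensembl bovine identifier. No sequence is printed.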

Additional observations from a re-analysis of the deposited data

Results flagged for a closer look

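With 4 control pools, a pool was looked at again where its gap to the nearest control pool took more of the group's whole range than Dixon's 95% critical value. This held for 7 of 27 measures examined. The measures are not independent, and chance alone would set apart about 5% of them.

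Control replicate 1 was set apart by its TMM factor, 1.08 against 0.935 for the nearest control pool (0.86 of the range), and by its score on the first principal component, -57.5 against 24.5 (0.865 of the range). It was also set apart by its CPM at ENSBTAG00000020626, 29.7 against 17.9 (0.898). At ENSBTAG00000008632 its CPM was 13.6 against 3.57 (0.949), at ENSBTAG00000019015 13.6 against 2.23 (0.928), and at ENSBTAG00000047136 19.4 against 1.74 (0.91). Those 3 genes were named because this pool broke their separation, so their values carry no independent weight. The first principal component was computed from these same pools to follow their largest spread, so that score carries none either. Control replicate 3 was set apart at ENSBTAG00000017416, with 57.1 against 49.1 CPM (0.863). The cause of these distances was not tested.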

How the results depend on the processing

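The count of genes past both thresholds was 0 with edgeR's test under every alternative run, and 4 with DESeq2 and 265 with limma. Genes at an unadjusted p under 0.05 numbered 892, 3015 with limma and 457 to 1443 with 1 pool left out. With only the 2 groups in the fit, edgeR's test gave 1018 such genes. Its smallest adjusted p was then 0.187, against 0.479 in the main fit. The count of separated genes was 1324, 44 where a distance of at least 1.5-fold was asked, and 1616 to 3827 with 1 pool left out, the highest without control replicate 1. Thinning gave 1277, of which 1045 were among the 1324. With the replicate block, edgeR's test gave 0 genes past both thresholds and 788 at an unadjusted p under 0.05. Same-numbered pools did not deviate together, with correlations of -0.2, 0.18 and -0.19, so the numbers were not taken as a pairing. Of the fold changes of the 21 named genes under these alternatives, 265 kept their direction and side of the threshold, 10 kept their direction with no adjusted p from DESeq2, 16 came to pass it (13 with limma and 3 with DESeq2) and 0 reversed. At all but 32 higher and 24 lower genes the counting intervals of the nearest pools overlapped.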
